A study of Danio rerio with 73 samples.

Results

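Zebrafish gonad DNA was examined at 4 amplicons of intermediate methylation, on chromosomes 3, 7 and 22 and on an unplaced scaffold, which together hold 26 of the 323 CpGs and make up 4 of the 20 amplicons kept in the series. They were selected on measured values: their mean level lay in the middle of the scale, and testes differed widely from ovaries at 28 °C. On chromosomes 3 and 7 and on the scaffold the testes fell into separate levels, one near that of ovaries and one far above it, and on chromosome 22 they lay along the whole scale. Each testis stood on the same side of 70% at the first 3 of these amplicons wherever it was measured. Of the testes above 70% on chromosome 3 and measured on chromosome 22, 10 were above it there too and 5 were not. Chromosome 22 levels rested on 6 CpGs in some fish and on the last 3 in others. Over the last 3, fish 8 of prefix 204 at 36 °C, among those below 70%, had 74.1%. On chromosome 3 the upper level held 11 of 13 testes of title prefix 128 and 0 of 10 of prefix 204 at 28 °C, and 12 of 12 and 6 of 8 at 36 °C.

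Methylation was measured by multiplex bisulfite sequencing in the mature gonads of 73 zebrafish, 90 days old and of the laboratory strain AB, whose gonads had developed at 28 °C or 36 °C. There were 43 testes and 30 ovaries, and the sample titles began with 128 or 204, a prefix that no label explains. Prefix 128 covered 13 testes and 9 ovaries kept at 28 °C and 12 testes kept at 36 °C. Prefix 204 covered 10 testes and 9 ovaries kept at 28 °C, and 8 testes and 12 ovaries kept at 36 °C. All fish were of one strain, and no mutant, transgene or drug is named in the labels. Tanks and families are not named, and the p-values therefore measure no more than the spread among these fish. The labelled tissue could not be checked against expressed marker genes, because DNA methylation alone was measured.

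In vertebrates a methyl group sits mainly on the cytosine of CpG pairs, and methylated promoters are usually less active. Zebrafish sperm DNA carries methylation at many sites where egg DNA does not, and a gonad holds germ cells at several stages together with somatic support cells. In laboratory zebrafish sex depends on many genes and on the surroundings, and heat during gonad formation shifts young fish towards males. In such bulk tissue a larger share of methylated cells and more methylation within each cell cannot be told apart.

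Levels are percents of methylated reads among all reads at a CpG, given where at least 10 reads covered it, and an amplicon's level is the mean over its CpGs. Coordinates are of the GRCz10 build, and no gene annotation of that build was used here, so the amplicons go by position and not by gene. The chromosome 3 amplicon holds 6 CpGs from 17897376 to 17897597 on the minus strand, and the chromosome 7 amplicon 9 CpGs from 34854540 to 34854908 on the minus strand. The chromosome 22 amplicon holds 6 CpGs from 20736688 to 20736788 on the minus strand. The scaffold amplicon, on chrUn_KN150211v1, holds 5 CpGs from 6205 to 6328 on the plus strand. Every CpG listed from each start to 450 bp after it passed the filter, at least 10 reads in at least 50% of fish. The 26 are therefore all the CpGs listed in these windows. Whether the genome holds further CpGs there without reads was not checked.

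The amplicons of chromosomes 3 and 7 were deep, and those of chromosome 22 and the scaffold shallow. A level was available for 72 of 73 fish at chr3:17897376 and for 65 at chr7:34854540, with medians of 1454 and 4366 reads per CpG where at least 10 were present. At chr22:20736688 it was available for 45 fish with a median of 41 reads, and at chrUn_KN150211v1:6205 for 53 fish with a median of 31 reads. Total CpG read calls per fish ran from 711295 to 12565602, apart from fish 14 of the 36 °C ovaries with 1404. That fish had a level at none of the 4 amplicons.

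The contrast that chose the amplicons was carried by prefix 128. At 28 °C the mean testis level exceeded the mean ovary level in prefix 128 by 41.4 points at chr3:17897376, 60.2 at chr7:34854540, 43.9 at chr22:20736688 and 40.5 at chrUn_KN150211v1:6205. In prefix 204 the same differences were 6.38, -3.54, 4.86 and -2.77 points. Averaged over prefixes with weights for the number of fish, the difference lay between 24.0 and 24.9 points at the 4 amplicons. Among amplicons higher in testis the next below the set was chr16:54645605 at 11.4 points. Further amplicons outside the set differed by more than that in size, chr18:39655137 by 33.4 points and chr5:44344567 by -15.9 points. No test is given for these values, since they chose the amplicons.

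At chr3:17897376 testes of prefix 128 ran from 32.7% through a median of 79.7% to 80.7% at 28 °C, and from 76.0% through 79.6% to 81.2% at 36 °C. Testes of prefix 204 ran from 25.7% through 38.9% to 59.5% at 28 °C, and from 33.3% through 78.3% to 80.4% at 36 °C. Ovaries ran from 14.4% through 31.1% to 52.9% in prefix 128, from 27.3% through 33.8% to 40.7% in prefix 204 at 28 °C, and from 24.9% through 31.3% to 41.3% at 36 °C. No ovary reached the level of the upper testes, and no fish had a level between 59.5% and 76.0%, the widest gap among the 72 fish. Below the gap stood 43 fish and above it 29, all of them testes.

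At chr7:34854540 the fish were further apart. Testes of prefix 128 ran from 31.5% through 90.7% to 93.6% at 28 °C, and from 82.9% through 91.1% to 93.5% at 36 °C. Testes of prefix 204 ran from 10.5% through 18.7% to 38.3% at 28 °C, and from 17.7% through 86.1% to 90.6% at 36 °C. Ovaries ran from 10.6% through 24.9% to 43.6% in prefix 128, with 5 fish measured, from 15.1% through 24.0% to 31.3% in prefix 204 at 28 °C, and from 17.5% through 26.3% to 29.0% at 36 °C. The gap from 43.6% to 79.0% held no fish, with 37 fish below it and 28 testes above it.

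At chr22:20736688 ovaries stayed low and the testes of prefix 128 at 28 °C spread over the whole scale. Those testes ran from 0.595% through 48.5% to 100%, with 9 of 13 fish measured, and the 6 measured at 36 °C ran from 71.8% through 74.8% to 97.8%. Among the latter, fish 1 and 4, with 97.8% and 96.7%, were measured at the last 3 CpGs only. Testes of prefix 204 ran from 3.80% through 12.4% to 25.1% at 28 °C, and the 4 measured at 36 °C had 4.45%, 6.41%, 43.6% and 55.9%. Ovaries ran from 5.35% through 11.8% to 24.7% in prefix 128, from 3.55% through 4.82% to 17.9% in prefix 204 at 28 °C, and from 0.417% through 3.78% to 19.1% at 36 °C. The widest gap, from 55.9% to 71.8%, left 10 testes above it and 35 fish below.

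At chrUn_KN150211v1:6205 testes of prefix 128 ran from 56.0% through 95.3% to 97.1% at 28 °C, and from 85.3% through 94.6% to 99.1% at 36 °C. Testes of prefix 204 ran from 24% through 32.6% to 53.3% at 28 °C, and the 6 measured at 36 °C from 91.7% through 96.6% to 99.0%. Ovaries ran from 23.9% through 44.0% to 72.5% in prefix 128, from 20% through 38.8% to 60.4% in prefix 204 at 28 °C, and from 20.2% through 40.3% to 66.5% at 36 °C. Ovaries here stood higher and wider than at the other amplicons, and the widest gap, from 72.5% to 85.3%, was narrower than at chr7:34854540. It left 26 testes above and 27 fish below. The ovary at 72.5% had a mean of 9.8 reads per CpG. Over all ovaries of each group the median depth here was 21.6 reads in prefix 128, and 5 at 28 °C and 16.5 at 36 °C in prefix 204. The part of such shallow counts in the spread of the ovaries was not tested.

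**Figure D1:**
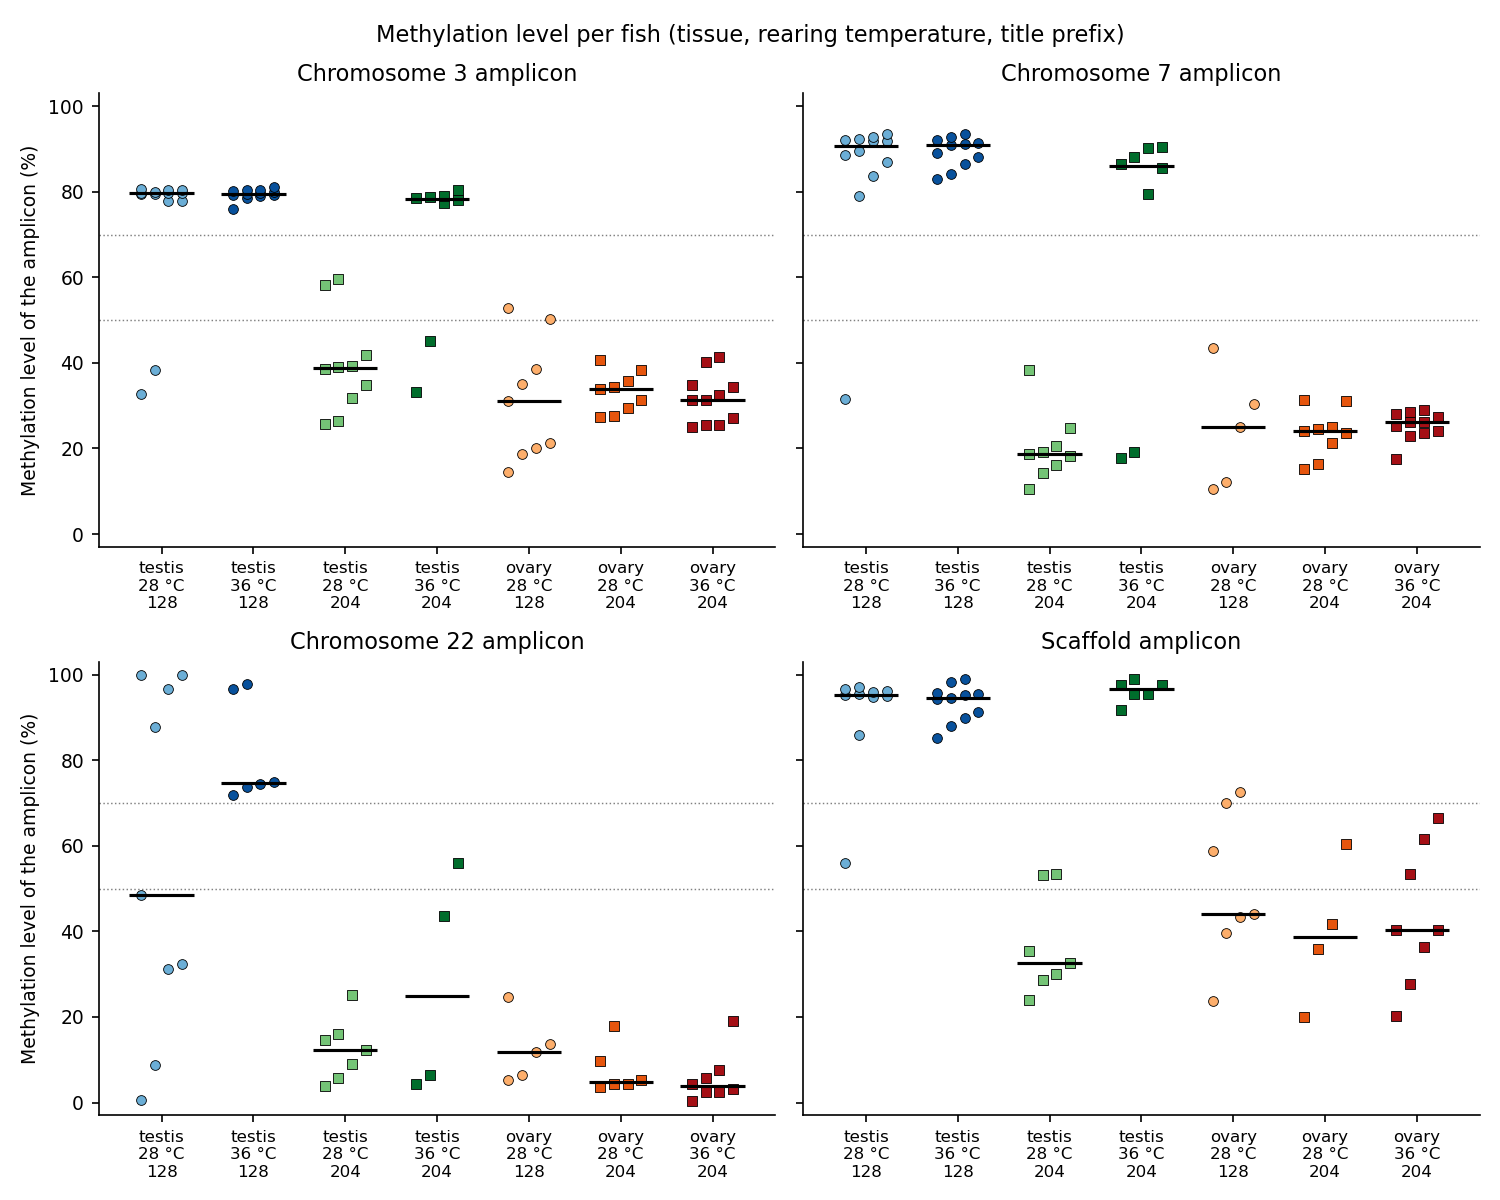
Methylation level of each amplicon (percent, y axis) for every fish with a level (points), by tissue, rearing temperature and title prefix (x axis). Black bars are medians and dotted lines mark 50% and 70%. Testes of prefix 128 sit mostly above 70%, testes of prefix 204 at 28 °C sit below it at all 4 amplicons, and testes of prefix 204 at 36 °C appear on both sides of it at chromosomes 3 and 7.

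With cut points of 50% and 70%, set with these levels known, 29 of 43 testes were at or above 70% at chr3:17897376, 2 lay between and 12 were below 50%. None of the 29 ovaries with a level was at or above 70%. At chr7:34854540 the counts for testes were 28 of 40 at or above 70%, 0 between and 12 below 50%. At chr3:17897376 these 29 testes were 11 of 13 fish of prefix 128 at 28 °C, 12 of 12 at 36 °C, 0 of 10 fish of prefix 204 at 28 °C and 6 of 8 at 36 °C. At chrUn_KN150211v1:6205, 26 of 34 testes and 2 of 19 ovaries were at or above 70%, the ovaries at 70% and 72.5% from means of 10 and 9.8 reads per CpG.

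In groups whose other testes stood above 70% at chr3:17897376, 4 testes were below it, and each was below 70% at every other amplicon where it had a level. In prefix 128 at 28 °C, fish 20 had 38.4% at chr3:17897376, 31.5% at chr7:34854540 and 31.3% at chr22:20736688, with no level on the scaffold. Fish 22 of the same group had 32.7% at chr3:17897376, 32.4% at chr22:20736688 and 56.0% on the scaffold, with no level at chr7:34854540. In prefix 204 at 36 °C, fish 1 had 33.3%, 17.7% and 4.45% at the amplicons of chromosomes 3, 7 and 22, and fish 17 had 45.2%, 19.1% and 6.41%. Neither of these last fish had a level on the scaffold, so the 6 testes that represent that group there are those above 70% on chromosomes 3 and 7. At the 3 amplicons with a mean above 90% in the series, fish 20 and 22 averaged 91.3% and 90.5%, and fish 1 and 17 averaged 88.8% and 91.3%. The other testes of prefix 128 averaged from 94.3% to 97.8% there, and ovaries with a level at chr3:17897376 from 87.3% to 94.5%.

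Across fish, the chromosome 3 and chromosome 7 amplicons placed every fish on the same side of 70%. Of the 65 fish with both levels, 28 were at or above 70% at both and 37 at neither. The scaffold placed all 34 testes measured there on the same side of 70% as chr3:17897376, 26 above and 8 below, and differed in the 2 ovaries named above. Chromosome 22 differed in 5 of 45 fish, which were high at chr3:17897376 and below 70% at chr22:20736688. They were fish 11, 13 and 18 of prefix 128 at 28 °C and fish 8 and 18 of prefix 204 at 36 °C. Over the last 3 CpGs of chromosome 22 alone, fish 8 had 74.1% in place of 55.9%. The others stayed below 70% there, with 0%, 8.81% and 45.5% in fish 11, 13 and 18 of prefix 128 and 48.7% in fish 18 of prefix 204. At the CpG 20736744 fish 11 had 0 of 28 methylated reads, where 0 counts allow a level of up to 10.7%, and fish 13 had 4 of 53, 7.55% (95% Wilson interval 2.97 to 17.9). Such limits and intervals cover counting error only, and amplified reads without molecular identifiers are not independent molecules.

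**Figure D2:**
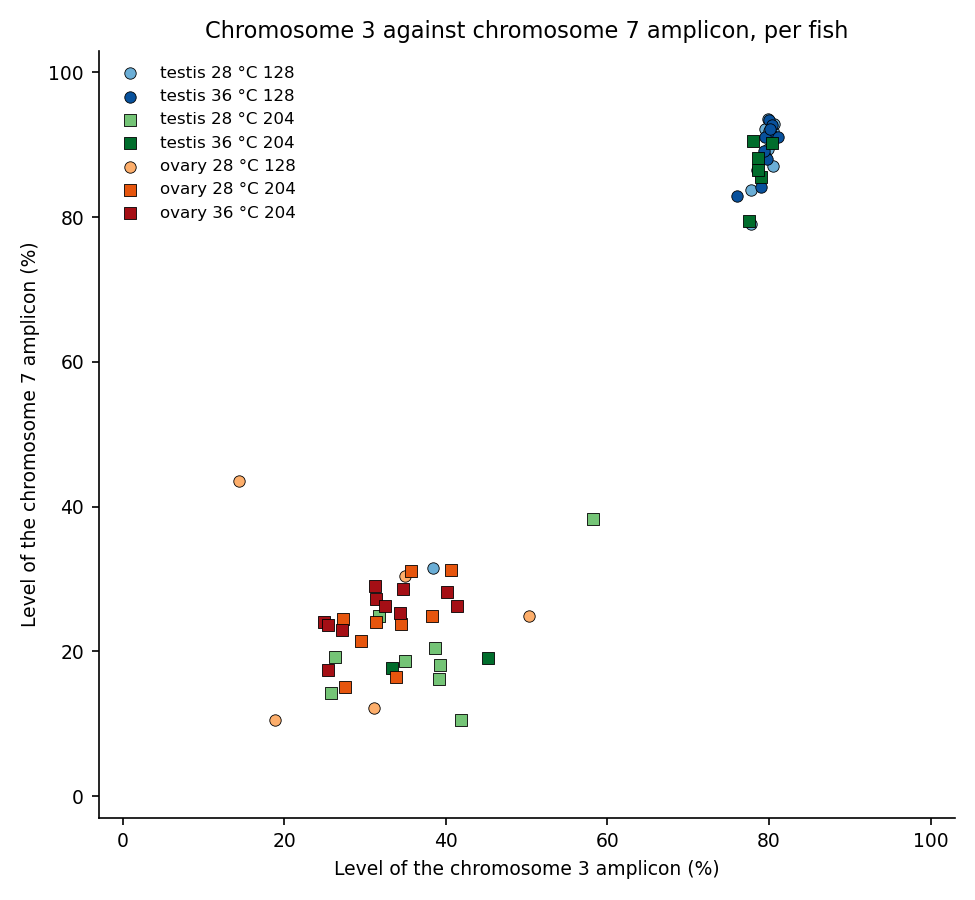
Level of the chromosome 7 amplicon (percent, y axis) against that of the chromosome 3 amplicon (percent, x axis) for the 65 fish with both, coloured by group. The fish form 2 separate clouds, with 28 testes in the upper right and 37 fish in the lower left.

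Within the lower cloud the order of the fish was shared in part. Among the 5 ovaries of prefix 128 with both levels, fish 15 was the lowest at chr3:17897376, with 14.4%, and the highest at chr7:34854540, with 43.6%. Fish 8 had the highest level of these at chr3:17897376, 50.3%, and 24.9% at chr7:34854540. In prefix 204 at 28 °C, among fish with both levels, fish 16 was the highest ovary and fish 2 the highest testis at both amplicons, while the lowest fish differed. Testis fish 7 of that prefix stood above fish 2 at chr3:17897376, with 59.5% against 58.2%, but had no level at chr7:34854540. Because the fish form separate clouds, no correlation over all fish is given.

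The profile along each amplicon showed single CpGs that did not follow their neighbours. On chr3:17897376, 4 CpGs moved together: in testes of prefix 128 at 36 °C their means ran from 94.3% ± 2.29 (SD, n = 12) at 17897376 to 95.6% ± 1.56 at 17897421. The exceptions were the CpG at 17897380, 4 bp from the first and in the sequence context CGC, and the last CpG at 17897597, in the context CGA. Both stood out by prefix in testis and ovary, and they were singled out after their values were seen.

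**Figure D3:**
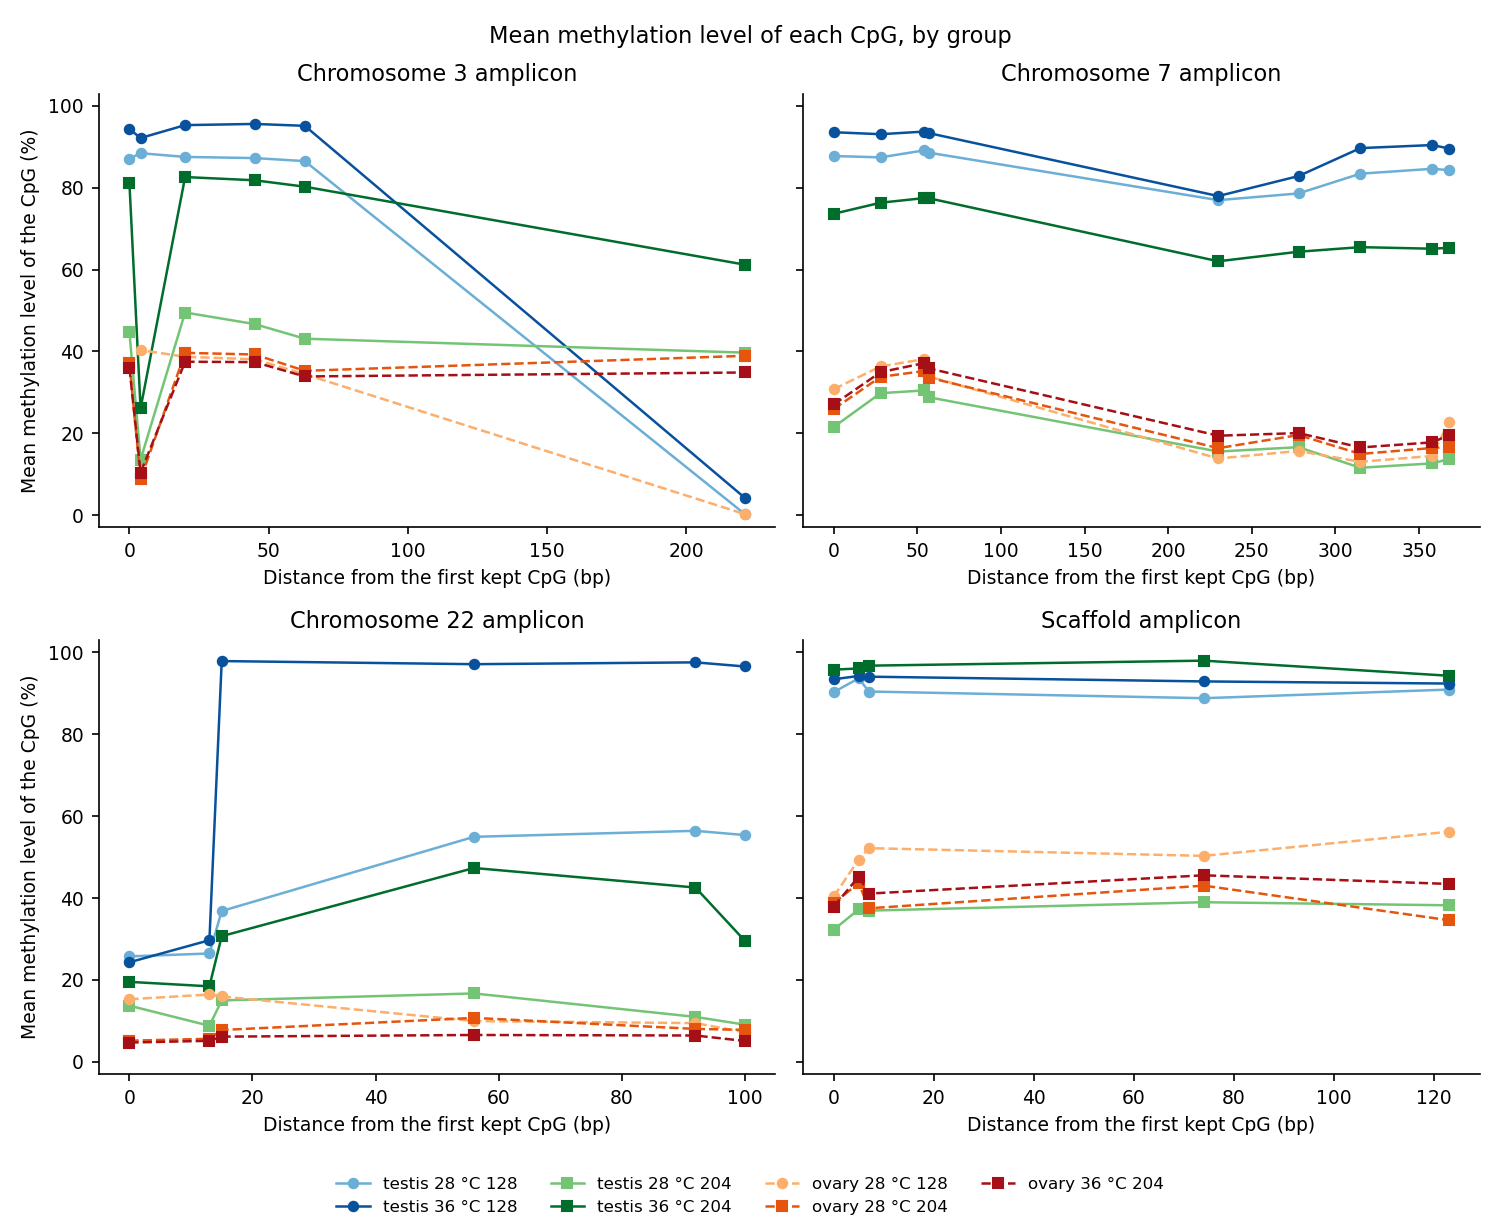
Mean methylation level (percent, y axis) of each kept CpG against its distance in bp from the first kept CpG of the amplicon (x axis), one line for each group, with solid lines for testis and dashed lines for ovary. The chromosome 3 amplicon shows a prefix-specific drop at its second and at its last CpG. Chromosome 22 shows a jump between its second CpG and the next in testes of prefix 128 at 36 °C. Chromosome 7 shows lower levels from 230 bp onward, and the scaffold a nearly flat profile in testes.

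At 17897597 the level was below 1% in 33 of the 34 fish of prefix 128, testes and ovaries alike, and in 0 of 38 fish of prefix 204. In prefix 204 it ran from 21.3% through a median of 39.4% to 80.6%. The exception was fish 19 of the 36 °C testes of prefix 128, with 48.7% at 17897597 and 46.3% at 17897380. At 17897380 the pattern was the other way round: fish of prefix 128 ran from 18.8% through 95.7% to 97.6%, and fish of prefix 204 from 1.89% through 9.12% to 47.5%. The difference between prefixes in ovary at 28 °C was -38.7 points (SE 1.24) at 17897597 and 31.6 points (SE 5.503) at 17897380, each with adjusted p = 0.00202 by the exact permutation test. These ovaries also entered the contrast that chose the amplicons, and the 2 CpGs were singled out from the same values, so the p-values are no separate evidence. The fish of the prefixes did not overlap at either CpG in ovary at 28 °C, where prefix 128 ran from 18.8% to 62.9% and prefix 204 from 7.57% to 10.7% at 17897380.

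In the 6 high testes of prefix 204 at 36 °C the pair of CpGs took a few combinations of levels. Fish 8, 11 and 13 had 18.4%, 17.3% and 15.2% at 17897380 with 79.8%, 79.9% and 80.6% at 17897597. Fish 2, 18 and 19 had 47.5%, 43.8% and 45.5% at 17897380 with 51.0%, 51.7% and 50.3% at 17897597. The levels of the pair added up to 98.2%, 97.1%, 95.8%, 98.5%, 95.5% and 95.9% in fish 8, 11, 13, 2, 18 and 19, and the other 4 CpGs of these fish averaged from 92.4% to 95.9%. Over all 72 fish the sum of the pair differed from the mean of the other 4 CpGs by -1.24 to 18.7 points, with a median of 3.22, and by at most 5 points in 40 fish. In prefix 128 the median was 1.62 and 30 of 34 fish lay within 5 points, but with 17897597 below 1% in 33 of them the sum was nearly the level of 17897380 alone. In prefix 204 the median was 8.61 and 10 of 38 fish lay within 5 points. Bisulfite counts cannot tell an unmethylated cytosine from a thymine in the genome, and the genotype of these fish at the CpGs was not tested. Both CpGs were also left out, an alternative chosen after seeing the data. Testis group medians that had stood near 80% became 95.3% in prefix 128 at both temperatures and 93.3% in prefix 204 at 36 °C. In that setting 30 of 43 testes were at or above 70%, among them 1 of the 10 testes of prefix 204 at 28 °C.

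**Figure D4:**
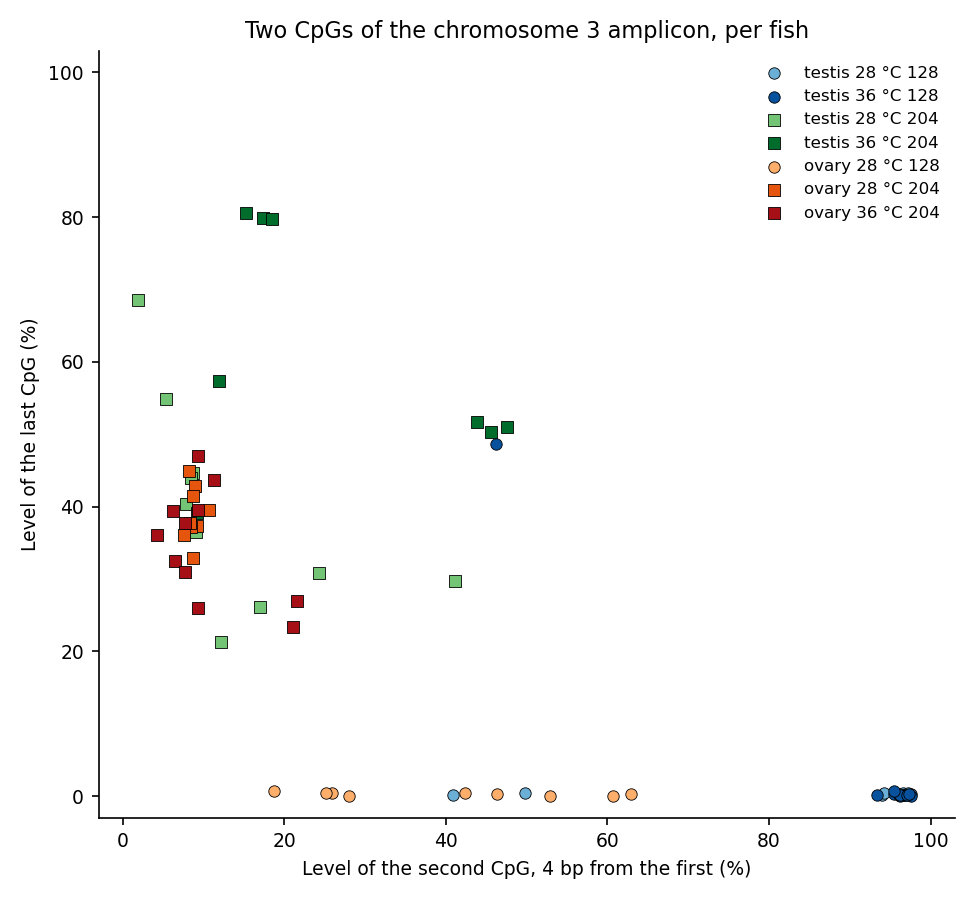
Methylation level of the last CpG of the chromosome 3 amplicon (17897597, percent, y axis) against that of its second CpG (17897380, percent, x axis) in 72 fish, coloured by group. Fish of prefix 128 lie along the x axis with the last CpG below 1%, apart from 1 testis at 36 °C with 48.7% on the y axis and 46.3% on the x axis, and fish of prefix 204 all have the last CpG above 21%.

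On chr7:34854540 the means of the first 4 CpGs stood above those of the other 5 in every group. From 34854597 to 34854770, 173 bp on, the level dropped in all 65 fish, with group medians of the drop between 11.1 and 17.6 points. In ovaries of prefix 204 at 28 °C the means were 33.6% ± 9.02 (SD, n = 9) and 16.4% ± 5.79, and in testes of prefix 128 at 36 °C they were 93.3% ± 2.20 (SD, n = 11) and 77.9% ± 6.58. In the testes of prefix 128 the lowest mean was at 34854770, and from there it climbed to 90.4% ± 4.33 at 34854898 in the fish kept at 36 °C. In the ovaries and in the testes of prefix 204 at 28 °C the lowest mean was at 34854855, between 11.6% and 16.5%. Depth changed along the amplicon too, with medians over all fish of 4048 reads at 34854597, 2158 at 34854770, 3436 at 34854855 and 3744 at 34854898. The part of depth in this profile was not tested.

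On chr22:20736688 the CpGs 20736701 and 20736703 lie 2 bp apart. In testes of prefix 128 at 36 °C the first had a mean of 29.7% ± 12.01 and the second 97.9% ± 2.59 (SD, n = 4), and all 4 fish showed the step, by 47.4 to 79.4 points. The CpG 20736688 stood at 24.3% ± 6.65 in these 4 fish. The means of the 3 CpGs from 20736744 on, over 6 fish of the group, were 96.6% to 97.6%. In the deepest of these fish, fish 17, the counts were 7 of 34 methylated reads at 20736701, 20.6% (95% Wilson interval 10.3 to 36.8), and 34 of 34 at 20736703, 100% (89.8 to 100). In ovaries the same step had group medians between 0 and 1.65 points. The amplicon's level therefore depended on which CpGs had reads: fish 1, 2, 4 and 16 of prefix 128 at 28 °C, with 87.9% to 100%, and fish 13, with 8.81%, had 10 reads at the last 3 CpGs only. So did fish 1 and 4 of that prefix at 36 °C, with 97.8% and 96.7%, where the 4 fish measured at all 6 CpGs had 71.8% to 75%.

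At those last 3 CpGs, which every fish with a chr22:20736688 level shared, testes of prefix 128 at 36 °C ran from 90.7% through 97.6% to 100%, all above the testes of prefix 204 at 28 °C, which ran from 4.81% through 8.60% to 25.2%. The 5 testes of prefix 204 measured there at 36 °C ran from 2.56% through 48.7% to 90%. Testes of prefix 128 at 28 °C ran from 0% through 45.5% to 100%. In that group the counts at 20736744 were 9 of 10 reads in fish 1, 10 of 10 in fish 2, 10 of 11 in fish 4 and 12 of 12 in fish 16. They were 5 of 11 in fish 18, 21 of 59 in fish 20, 5 of 20 in fish 22, 4 of 53 in fish 13 and 0 of 28 in fish 11. The group held fish at the top, in the middle and at the bottom of the scale.

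The scaffold profile was nearly flat in testes. In testes of prefix 204 at 36 °C the means of its 5 CpGs ran from 94.3% ± 1.72 at 6328 to 98.0% ± 2.26 at 6279 (SD, n = 6), and in testes of prefix 204 at 28 °C from 32.3% ± 16.2 at 6205 to 39.0% ± 9.36 at 6279 (SD, n = 7). In ovaries of prefix 128 the means ran from 40.4% ± 13.3 at 6205 to 56.2% ± 20.4 at 6328 (SD, n = 7), the widest range of the scaffold in any group.

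Testis and ovary at 36 °C were compared in prefix 204, in fish outside the 28 °C contrast that chose the amplicons, although their levels entered the mean that called the amplicons intermediate. Testes were higher by 37.2 points (SE 6.78) at chr3:17897376, 44.3 (SE 11.3) at chr7:34854540 and 52.8 (SE 5.79) at chrUn_KN150211v1:6205. The adjusted p-values were 0.00044, 0.00273 and 0.00105 by exact two-sided permutation tests of the difference between means per fish with Benjamini-Hochberg adjustment. All 3 tested amplicons of the 4 passed the threshold of 0.05, against 14 of 19 amplicons in the whole series, 73.7%. Of the 22 member CpGs tested, 21 passed, all of them higher in testis, where 34.0% of all 318 CpGs tested passed in either direction. The 318 include CpGs of the 8 amplicons with a mean below 5% in the series, which hold 18 to 34 kept CpGs each. The share among CpGs of intermediate level alone was not computed, here or in the comparisons below. The member CpG with the largest difference was 6205 on the scaffold, 57.9 points, with adjusted p = 0.00403 by the same exact permutation test. Testis fish 1 and 17 had no level on the scaffold, so the scaffold differences leave them out, while those on chromosomes 3 and 7 include them. Testes exceeded every ovary in 7 of 8 fish at chr3:17897376, 6 of 8 at chr7:34854540 and 6 of 6 on the scaffold. At chr22:20736688, with 4 testes, the difference of 21.9 points (SE 13.2) was below the 5 fish per side needed for a test.

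Rearing temperature went with different levels in testes of prefix 204. Testes at 36 °C were higher than testes at 28 °C by 29.3 points (SE 7.51) at chr3:17897376, 49.6 (SE 11.6) at chr7:34854540 and 59.5 (SE 4.58) on the scaffold, with adjusted p = 0.0046, 0.0046 and 0.00391 by exact permutation tests. These were 3 of the 3 tested of the 4 amplicons and 19 of the 22 member CpGs tested, all higher at 36 °C, against 68.4% of all amplicons and 31.4% of all CpGs in the series. The testes did not shift as a body: 6 of the 8 at 36 °C stood above every testis at 28 °C at chr3:17897376 and at chr7:34854540, and fish 1 and 17 lay within the range of the 28 °C testes. The largest difference was again at the CpG 6205, 63.5 points with adjusted p = 0.00706 by the exact permutation test. Fish 1 and 17 had no level on the scaffold, so the scaffold differences leave them out, while those on chromosomes 3 and 7 include them. At chr22:20736688 the difference was 15.2 points (SE 13.3) from 4 and 7 fish and was not tested.

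In testes of prefix 128 the same contrast gave 6.61 points (SE 4.62) at chr3:17897376, 4.82 (SE 5.09) at chr7:34854540, 25.4 (SE 14.4) at chr22:20736688 and 2.58 (SE 4.20) on the scaffold. None of the 4 amplicons and none of 23 member CpGs tested passed, with adjusted p = 0.575, 0.647, 0.428 and 0.725 for the amplicons by permutation tests. The background was also 0% for amplicons and for CpGs. Over the whole panel an unadjusted p under 0.05 by permutation was found at 3 of 19 amplicons and 18 of 312 CpGs, and limma called 0 of each. It was found at 0 of the 4 member amplicons. The member CpG with the largest tested difference was 20736744 on chromosome 22, 42.2 points with adjusted p = 0.704 by the exact permutation test. Fish 20 and 22 at 28 °C were the only testes of prefix 128 below 70% at chr3:17897376.

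In ovaries of prefix 204, 36 °C and 28 °C differed by -1.49 points (SE 2.32) at chr3:17897376, 1.76 (SE 2.10) at chr7:34854540 and -1.85 (SE 3.06) at chr22:20736688. None of these 3 amplicons and none of the 21 member CpGs tested passed, with adjusted p from 0.64 to 0.652 for the amplicons by exact permutation tests. The background was again 0% for both kinds of feature. Over the whole panel an unadjusted p under 0.05 by permutation was found at 5 of 18 amplicons and 20 of 294 CpGs, and limma called 0 of each. It was found at 0 of the 3 member amplicons tested. On the scaffold the difference was 3.84 points (SE 10.1) with 4 fish at 28 °C, too few for a test. The largest difference at a tested member CpG was -4.17 points at 20736744, with adjusted p = 0.743 by the exact permutation test.

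**Figure D5:**
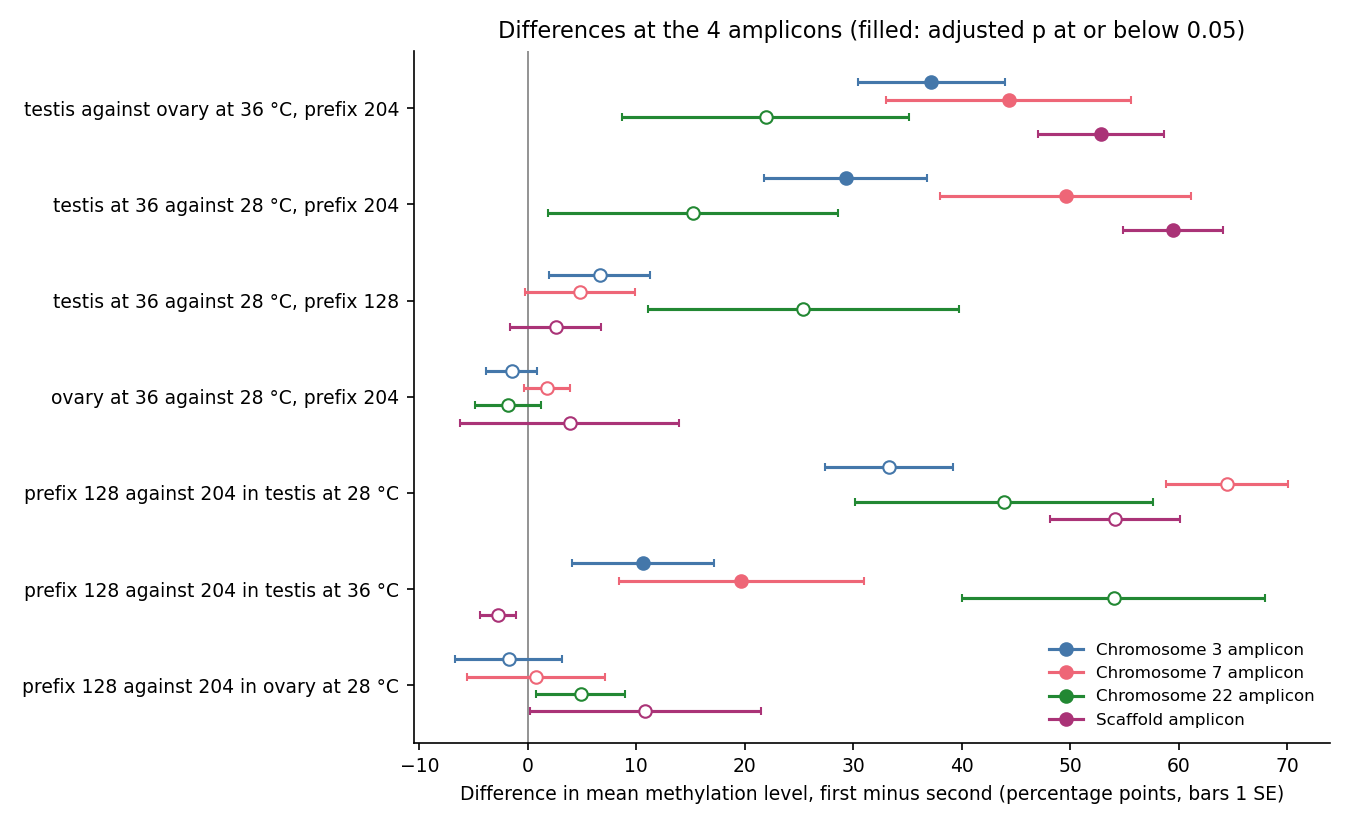
Difference in mean methylation level between the groups of 7 comparisons (percentage points, first minus second, x axis) at each of the 4 amplicons, with bars of 1 SE. Filled points have an adjusted p at or below 0.05; open points missed it or had too few fish for a test. The prefixes in testis at 28 °C are drawn open, as a description, because these fish chose the amplicons. The differences in testis for prefix 204 between temperatures lie between 29.3 and 59.5 points where filled, and those in ovary lie between -1.85 and 4.87 points, except on the scaffold, where the prefixes differ by 10.8 points without a test.

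The prefixes were set side by side in testis at 28 °C as a description, since these testes are also those of the contrast that chose the amplicons. Testes of prefix 128 were higher by 33.3 points (SE 5.88) at chr3:17897376, 64.4 (SE 5.63) at chr7:34854540, 43.9 (SE 13.7) at chr22:20736688 and 54.1 (SE 5.99) on the scaffold. In the fit over the whole panel 75.0% of amplicons and 34.8% of CpGs passed the threshold, and nothing is read from the members' share of these calls. The largest CpG difference was 74.9 points at 17897380, and 17897597 was lower in prefix 128 by 39.4 points. Every testis of prefix 128 was above every testis of prefix 204 on the scaffold, 10 against 7 fish, as were 11 of 13 at chr3:17897376 and 11 of 12 at chr7:34854540.

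At 36 °C the difference between prefixes in testis was smaller than at 28 °C on chromosomes 3 and 7 and on the scaffold, and not on chromosome 22. Prefix 128 was higher by 10.6 points (SE 6.57) at chr3:17897376 and 19.7 (SE 11.3) at chr7:34854540, each with adjusted p = 0.0309 by the exact permutation test, and differed by -2.77 points (SE 1.67) on the scaffold, with adjusted p = 0.195. Those 2 of 3 tested amplicons stood against 72.2% of all amplicons, and 12 of 22 member CpGs tested against 35.2% of all CpGs. Leaving out fish 1 or fish 17 of prefix 204 ended both amplicon calls, with 5.52 and 7.23 points left at chr3:17897376 and 12.2 and 12.4 at chr7:34854540, and without fish 18 they ended as well, with adjusted p = 0.0500119 and 0.0533 by the exact permutation test. The fit with limma gave adjusted p = 0.104 at both. On the scaffold fish 1 and 17 of prefix 204 had no level, so its difference leaves them out. The largest tested CpG difference was 66.0 points at 17897380, adjusted p = 0.00164 by the exact permutation test. At chr22:20736688 the 6 testes of prefix 128 all stood above the 4 of prefix 204, by 54.0 points on average (SE 13.96), with no test.

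In ovaries at 28 °C prefix 128 differed from prefix 204 by -1.78 points (SE 4.91) at chr3:17897376, 0.72 (SE 6.37) at chr7:34854540 and 4.87 (SE 4.13) at chr22:20736688. None of these 3 passed, with adjusted p of 0.885, 0.885 and 0.7 by exact permutation tests, where 5.56% of all amplicons did; none of the 3 had an unadjusted p under 0.05, and limma called none of them. The 2 member CpGs that passed among 21 tested were 17897380 and 17897597, against 3.74% of all CpGs, and they went in opposite directions. The scaffold difference was 10.8 points (SE 10.7) with 4 fish of prefix 204, and was not tested. The ovaries of prefix 128 spread more widely at chr3:17897376, with an SD of 13.97 against 4.67 points. All these ovaries also entered the contrast that chose the amplicons.

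The testis minus ovary difference at 28 °C, the contrast that chose the amplicons, was larger in prefix 128 than in 204 by 35.1 points (SE 7.66) at chr3:17897376, 63.7 (SE 8.51) at chr7:34854540, 39.0 (SE 14.3) at chr22:20736688 and 43.3 (SE 12.2) on the scaffold. At 17897597 the same quantity was -0.753 points (SE 4.67). These values are a description and no test of them is given. In the fit over the whole panel 55.0% of amplicons and 24.8% of CpGs passed for this interaction, and nothing is read from the members' share.

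Differences between the effects of temperature were tested directly by permuting residuals. The effect of 36 °C in testis was larger in prefix 204 than in 128 by 22.7 points (SE 8.82) at chr3:17897376, 44.8 (SE 12.6) at chr7:34854540 and 56.9 (SE 6.22) on the scaffold, with adjusted p = 0.0146, 0.00123 and 0.00019 by permutation. It was -10.2 points (SE 19.6) at chr22:20736688, with adjusted p = 0.758 by permutation. That made 3 of 4 amplicons against 63.2% of all, and 18 of 26 member CpGs against 27.6%, of which 17 went the same way and 20736703 the other, by -45.4 points. Within prefix 204, the effect of 36 °C was larger in testis than in ovary by 30.8 points (SE 7.86), 47.8 (SE 11.8) and 55.6 (SE 11.1) at chr3:17897376, chr7:34854540 and the scaffold, with adjusted p = 0.00048, 0.0004 and 0.0003 by permutation. At chr22:20736688 it was 17.1 points (SE 13.7), with adjusted p = 0.0984, and the counts were 3 of 4 amplicons against 55.0% of all and 19 of 26 member CpGs against 19.8%. On ranks in place of levels, the effect of 36 °C no longer differed past the threshold between tissues at any of the 4 amplicons, nor between prefixes at chr3:17897376 and chr7:34854540. The scaffold values of both interactions leave out fish 1 and 17 of prefix 204 at 36 °C, which had no level there. These interactions share testes at 28 °C or 36 °C with the comparisons above and are not separate evidence. The 28 °C fish in them, as in the temperature and ovary comparisons, also entered the contrast that chose the amplicons. The interaction of temperature and prefix equals the prefix difference in testis at 28 °C, given above as a description, less that at 36 °C. Its p-values are therefore no separate evidence from the values that chose the amplicons.

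The amplicons were then placed beside the rest of the panel. Each fish was given a position from 0, the mean of the 28 °C ovaries of prefix 128, to 100, the mean of the 36 °C testes of prefix 128, over the 9 amplicons where these means differ by at least 10 points. The amplicon whose positions were closest to those of chr3:17897376 was chr18:39655137, with a mean absolute difference of 5.65 over 69 fish, followed by chr7:34854540 with 9.33 over 65. For chr7:34854540 they were chr18:39655137 with 9.11 over 64 fish and chr3:17897376. For chr22:20736688 they were chr7:34854540 with 18.5 over 41 fish and chr18:39655137 with 20.6 over 44, and for the scaffold chr3:17897376 and chr7:34854540 with 18.7 each over 53 and 49 fish. The shallow amplicons stood further from their nearest amplicons than the deep ones did, and the part of depth in this was not tested. Kept CpGs were 2.44 to 5.94 per 100 bp in the 4 amplicons and 4.90 to 9.58 in the 8 amplicons of the series with a mean below 5%.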

How the data were processed

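Bisulfite-converted gonad DNA was amplified with multiplexed primers and sequenced. The authors deposited, for each of 73 fish, the counts of methylated and unmethylated reads per CpG, which are whole numbers and not normalized. Trim Galore 0.4.5, FastQC 0.11.6, Bowtie2, Bismark 16.0 and the build GRCz10 are named, per the submitters' processing notes. Whether PCR duplicates were removed is not given in the sources used here.

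A CpG was kept with at least 10 reads in at least 50% of fish. Members are the kept CpGs from each of the 4 starts to 450 bp on; elsewhere an amplicon is a run of kept CpGs with gaps of at most 200 bp. An amplicon had a level in a fish where at least 50% of its CpGs had one, and its depth is the mean of reads per CpG. The members, lists, cuts and tests were chosen with earlier results of these data known.

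Groups came from tissue, temperature and title prefix. Each of 7 comparisons compared means over fish by permutation, two-sided, with at least 5 fish a side. All splits were enumerated (exact) when either side was below 10 fish; larger ones used 100000 resamples, whose smallest p is 1e-05. Each of 3 interactions permuted residuals of the additive model. P-values were Benjamini-Hochberg adjusted over all amplicons, or all CpGs, of a comparison. The tests were tested on simulated data. Prefix in testis and the interaction of tissue and prefix, both at 28 °C, were computed likewise but are given without p-values, since those fish chose the amplicons. SE is that of the difference with unequal spread. Named CpGs are those with the lowest or highest mean in a group, or the largest difference in a comparison. No 2 libraries held identical counts. Alternatives were 5 and 30 reads, 80% of fish, pooled counts, ranks, limma 3.58.1 (R 4.3.3), shallow fish left out, fish numbers as blocks, and each fish left out (20000 resamples). Python 3.11.15, numpy 2.4.6, pandas 2.3.3 and scipy 1.17.1 were used.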

Additional observations from a re-analysis of the deposited data

Results flagged for a closer look

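In 3 of 29 groups of 4 to 10 fish one fish stood far from the others of its group, where chance alone gives about 1 in 20 for normally spread values, a rate not measured for percents. At chr22:20736688 fish 4 of the 36 °C ovaries had 19.1%, and the next fish 7.53%. On the scaffold fish 22 of the 28 °C testes of prefix 128 had 56.0%, and the next fish 85.9%; this fish was also low at chr3:17897376. At the CpG 17897380 fish 16 of the 28 °C ovaries of prefix 204 had 10.7%, and the next fish 9.11%.

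The testis minus ovary difference at 28 °C was larger in prefix 128 than in prefix 204 by 35.1 points at chr3:17897376, 63.7 at chr7:34854540 and 43.3 on the scaffold. These are values of the 28 °C contrast that chose the amplicons and stand as a description. The difference between 36 °C and 28 °C in testis was larger in prefix 204 than in prefix 128 by 22.7, 44.8 and 56.9 points at the same amplicons. Within prefix 204 it was larger in testis than in ovary by 30.8, 47.8 and 55.6 points. The 6 differences between effects of temperature passed the threshold in permutation tests of the interaction itself. On ranks in place of levels, those between tissues passed at none of these amplicons. Those between prefixes did not pass on ranks at chr3:17897376 and chr7:34854540. The 28 °C fish in all of them also entered the contrast that chose the amplicons. Their scaffold values leave out fish 1 and 17 of prefix 204 at 36 °C, which had no level there.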

How the results depend on the processing

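Under 5 reads per CpG, 30 reads, CpGs covered in 80% of fish, pooled counts and the loss of the shallow fish, the counts of member amplicons and member CpGs past the threshold stayed within 1.5 times, apart from those named next. With 30 reads or 80% of fish, chromosome 22 and the scaffold dropped out, which left 15 member CpGs and 2 amplicons, and 2 amplicons past the threshold between prefixes in testis at 28 °C, a contrast given, like the interaction of tissue and prefix, as a description.

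On ranks, 6 member CpGs and 1 amplicon passed between prefixes in testis at 36 °C. The counts were 6 and 1 for the interaction of temperature and prefix, and 0 and 0 for that of temperature and tissue. The call at chr7:34854540 for testis against ovary at 36 °C also ended on ranks, with adjusted p = 0.074 by the exact permutation test. With limma, 2 member CpGs and 0 amplicons passed between prefixes in testis at 36 °C. Over the whole panel limma called 2 of 310 CpGs and 3 of 18 amplicons there, where the permutation tests called 35.2% and 72.2%. Leaving out each fish in turn gave 7 to 15 member CpGs and 0 to 2 amplicons in that comparison, and the causes were not tested. The share of the whole panel past the threshold on ranks or with a fish left out is not given, so nothing is read from the members' share there.

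No value that turned sign was past the threshold. With 5 reads chr22:20736688 gave 0.82 points for temperature in ovary and 6.46 for the interaction of temperature and prefix. With each fish left out in turn, the scaffold ran from -1.29 (without fish 22 of the 28 °C testes) to 3.39 for temperature in testes of prefix 128 and from -2.65 to 10.8 in ovary, chr22:20736688 ran from -3.76 to 0.227 in ovary, and between prefixes in ovary chr3:17897376 ran from -4.47 to 0.342 and chr7:34854540 from -4.09 to 4.16. With 5 reads chr22:20736688 also passed for testis against ovary at 36 °C (28.3 points), temperature in testes of prefix 204 (26.6) and prefix in testis at 36 °C (39.1). The interaction of tissue and prefix was 36.7 points there, a description only, since those fish chose the amplicons.

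Fish numbers do not repeat between tissues within a rearing temperature and prefix. With the number as a replicate block, over shared numbers, chr3:17897376 gave -0.178 points and the scaffold -3.56 for temperature in testes of prefix 128. The scaffold gave -11.4 for temperature in ovary, from numbers 10 and 20 alone, which went opposite ways. They had 20.2% and 53.3% at 36 °C against 60.4% and 35.8% at 28 °C. Between prefixes in ovary chr3:17897376 gave 4.59, from numbers 10 and 12 alone, which also went opposite ways. They had 52.9% and 20.2% in prefix 128 against 34.4% and 29.5% in prefix 204. Between prefixes in testis at 36 °C the replicate block, with 5 pairs and a smallest p of 0.0625, left 0 member CpGs and 0 amplicons past the threshold. Same-numbered fish correlated from -0.715 to 0.92 in their deviations over amplicons, so the numbers are not taken as pairs. No fit with the block was possible for testis against ovary at 36 °C or for the interactions.

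A level of chromosome 22 from its last 3 CpGs, chosen after seeing the data, also passed for tissue at 36 °C (37.8 points), prefix in testis at 36 °C (53.2) and the interaction of tissue with temperature (34.5). Each includes 5 testes of prefix 204 at 36 °C in place of 4, and with 4 the comparisons at 36 °C had too few fish for a test. The fish gained, fish 2, was the highest with 90%, from 2 of the 3 CpGs, with 9 of 10 methylated reads at 20736744. For the interaction of tissue with prefix the value was 43.3 points, a description only, since those fish chose the amplicons. Without 17897380 and 17897597, chosen likewise, no call at chr3:17897376 moved, but 30 in place of 29 testes were at or above 70%, with 1 in place of 0 in prefix 204 at 28 °C, and 1 in place of 2 testes of prefix 204 at 36 °C was below 50%. From the last 3 CpGs of chromosome 22, 12 of 27 testes were at or above 70% in place of 10 of 26. Depth limits chromosome 22 and the scaffold, where 10 reads leave wide intervals.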

Other observations

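A CpG at 5948 of the scaffold, 257 bp before the first member, was kept as well but lies outside the chosen window. Testes of prefix 204 ran there from 10% through 19.4% to 55.6% at 28 °C, with 7 fish, and from 82.6% through 97.7% to 100% at 36 °C, with 6 fish. Testes of prefix 128 ran from 46.2% through 95.1% to 100% at 28 °C and from 80% through 94.5% to 100% at 36 °C. Of the 53 fish measured at both, 26 were at or above 70% at 5948, and all 26 were so at the amplicon.

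Upstream of the chromosome 22 amplicon some CpGs had at least 10 reads in at most 31 fish and were not kept. At 20736356 the 6 testes of prefix 128 measured at 36 °C ran from 88.2% to 100%, the 5 testes of prefix 204 at 28 °C from 7.32% to 38.9%, and the 6 ovaries of prefix 204 at 28 °C from 0% to 26.1%. At 20736678, 10 bp before the first member, testes of prefix 204 at 28 °C ran from 2.68% through 12.2% to 36.6% in 7 fish.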
